A study of Mus musculus with 30 samples.

Results

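Back skin of D6-deficient and WT mice was compared directly on day 4 after TPA, genotype against genotype on the same day and without subtracting day 0. The comparison used 6 of the 30 Affymetrix mouse arrays of the study, 3 D6-deficient and 3 WT, and took in every probe set that was not a control and not among the dimmest 20%. D6 (gene Ccbp2, now Ackr2) is an atypical chemokine receptor that binds inflammatory CC chemokines, takes them into the cell for degradation and does not signal like a classical receptor. In skin it is known from lymphatic endothelium, and mice without it are known for prolonged inflammation after an irritant. TPA, a phorbol ester, is such an irritant: it activates protein kinase C, makes keratinocytes divide and draws in leukocytes. Cytokines of the IL-17 and IL-22 group act on keratinocytes in turn, IL-22 by slowing their terminal differentiation and IL-17A by inducing chemokines and growth factors for neutrophils.

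All mice were female, 8 to 12 weeks old and of mixed 129 and C57BL/6 background. The shaved back was painted with 50 µM TPA 3 times, 24 h apart, and whole skin was taken 4 days later. The D6-deficient mice lacked the receptor in every tissue and not in a chosen cell type. Each array held the skin RNA labelled as 1 animal, and no source used here said whether the WT mice were littermates. The other 24 arrays, 3 of each genotype on days 0, 1, 2 and 6, served for the shared estimate of spread and as a second look at each difference. Those differences come from separate arrays, but their tests use the same estimate of spread as day 4. Day 0 skin is labelled untreated, whereas the methods describe acetone alone. Levels are log2 of the deposited intensity, differences are D6-deficient minus WT on that scale with their standard error (SE), and a probe set passed when its Benjamini-Hochberg adjusted p from limma, a linear model fitted across all probe sets, was under 0.05. A probe set that also differed by more than 3-fold is referred to as called. Precision is bounded by the 3 arrays per genotype, for which the smallest p of an exact permutation test on 1 probe set is 0.1.

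The arrays were alike in general quality. Medians of the 6 day 4 arrays lay between 5.66 and 5.73, and the correlation of 2 arrays over all probe sets was 0.985 to 0.994 within a genotype and 0.981 to 0.991 between genotypes. Keratinocyte and fibroblast genes were bright on every array, with Krt14 between 12.98 and 13.87 and Col1a2 between 13.27 and 13.89, which matches the label of skin. The 3' end of the GAPDH control exceeded its 5' end by -0.02 to 0.02 on the WT arrays and by 0.02 to 0.21 on the D6-deficient ones. D6-deficient replicate 1 was the highest of these, also for the actin control (0.64, against 0.34 to 0.48 on the other day 4 arrays). Hybridization controls divided the 30 arrays into 17 of high and 13 of low signal, and day 4 had WT replicates 1 and 3 and D6-deficient replicate 1 in the first set. Each set thus set 1 array against 2, with no test, and 26 of the 28 probe sets called below exceeded 3-fold within the first set and 25 within the second. Both sets are parts of the arrays that made the calls, so these counts follow largely from the choice and are no separate check. With the hybridization signal as a covariate Il17a lost its call (limma adjusted p = 0.0516).

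The targeted gene was measured by 3 probe sets. On 1422112_at, Ccbp2 was at 5.76, 5.08 and 5.48 in WT skin and at 3.69, 3.30 and 3.64 in D6-deficient skin. The groups lay apart by more than 1 unit, a difference of -1.90 (SE 0.25, limma adjusted p = 0.000184). 1422111_at also had all WT arrays above all D6-deficient ones but did not pass (-0.64, limma adjusted p = 0.223). The brightest, 1437937_at, overlapped between genotypes at 7.60 to 8.01 in WT and 7.64 to 7.87 in D6-deficient skin. Which part of the gene each probe set reads relative to the deletion was not analysed here. On 1422112_at and 1422111_at every array went with its label.

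On day 4, 28 of 36029 probe sets were called, 0.0777% of those tested, and they stood for 24 named genes and 3 probe sets without a gene. In D6-deficient skin 12 of these were higher (0.0333%) and 16 lower (0.0444%). The higher ones included the cytokines Il22 and Il17a, the chemokine Cxcl9, the neutrophil growth factor Csf3 and the prostaglandin synthase Ptgs2. The lower ones included lectins of the Cd209 family, Apod, members of a Trim gene cluster, Ccbp2 itself and the cornified envelope gene Hrnr. All 28 had groups that did not overlap. Groups also did not overlap for 14.9% of all probe sets tested (7.49% higher, 7.37% lower), so lack of overlap alone sets no probe set apart here.

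**Figure D1:**
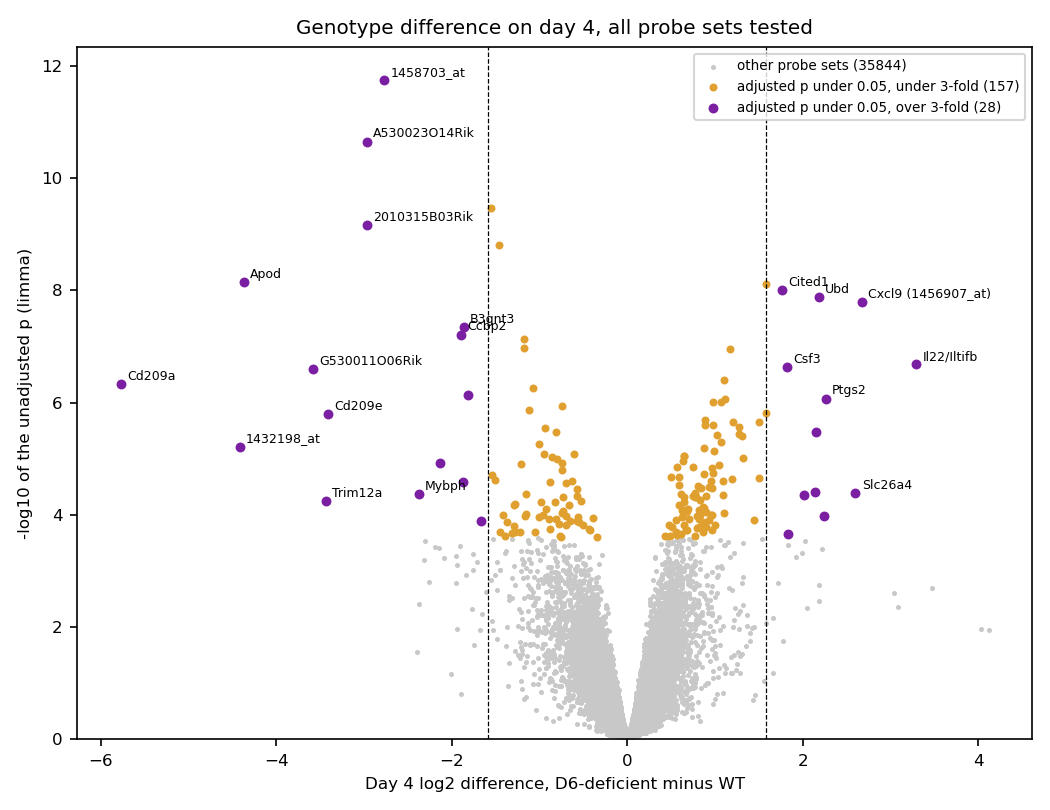
Each point is 1 of the probe sets tested on day 4, with the log2 difference, D6-deficient minus WT, on the horizontal axis and -log10 of the unadjusted limma p on the vertical axis. The 28 called probe sets are coloured and lie on both sides, 12 to the right and 16 to the left, and the farthest is Cd209a at -5.77.

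Without the fold threshold 185 probe sets of 158 genes passed (0.513% of those tested), 104 higher (0.289%) and 81 lower (0.225%), and 3620 had an unadjusted p under 0.05. The median difference over all probe sets was -0.00601, and 48.6% of them lay above 0. These counts rest on the spread estimated over all 30 arrays. In a fit to the 6 day 4 arrays alone, 25 were called, of which 17 were among the 28, and 11 of the 28 lost their call: Slc26a4, Prok2, U90926, Ces1d, Il17a, Csf3, Cited1 and both Cxcl9 probe sets among the higher, Mybph and Hrnr among the lower. Their sizes were the same in that fit, and their adjusted p lay between 0.0688 (Cited1) and 0.303 (Il17a).

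Among the higher genes Il22 had the largest difference. Il22, the cytokine of T helper 17 and innate lymphoid cells that acts on keratinocytes, was at 3.55, 3.95 and 3.81 in WT skin and at 7.93, 6.32 and 6.96 in D6-deficient skin. All WT arrays were near the dim end of the scale and all D6-deficient arrays well above it, a difference of 3.30 (SE 0.46, limma adjusted p = 0.000467). The lowest mean that the filter kept was 3.725, and no fold is given where a group lay near or below it, as WT skin did here. The probe set also matches Iltifb, a near-identical copy of Il22, and the signal of the 2 genes cannot be told apart. From day 0 to day 4, 39.1% of all probe sets passed in WT and 41.1% in D6-deficient skin. Il22 was 0.77 above its day 0 level in WT skin, which did not pass (limma adjusted p = 0.196), and rose by 3.77 in D6-deficient skin. On the other days the genotypes differed by -0.53 to 0.29, and the day 4 difference exceeded their mean by 3.31 (limma adjusted p = 0.00597).

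Il17a, the founding IL-17 cytokine, read 4.51, 4.55 and 5.27 in WT skin and 8.01, 5.49 and 6.32 in D6-deficient skin. The groups did not overlap, but WT replicate 3 and D6-deficient replicate 2 lay only a little apart, and D6-deficient replicate 1 stood well above the other two. The difference was 1.83 (SE 0.42, 3.56-fold, limma adjusted p = 0.0447). It no longer passed without D6-deficient replicate 1 (1.13, adjusted p = 0.231), D6-deficient replicate 3 (1.98, adjusted p = 0.0597), WT replicate 1 (1.70, adjusted p = 0.146) or WT replicate 2 (1.72, adjusted p = 0.188).

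Csf3 encodes granulocyte colony-stimulating factor, which drives the making and release of neutrophils. Its levels were 7.96, 6.92 and 8.21 in WT skin and 9.81, 9.51 and 9.24 in D6-deficient skin. Every D6-deficient array was above every WT array, by 1.82 in the means (SE 0.26, 3.52-fold, limma adjusted p = 0.0005). Both genotypes had risen from day 0, WT skin by 4.03 and D6-deficient skin by 5.83, so that the genotypes differed in the height of a shared rise.

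Cxcl9, a chemokine induced by interferon gamma that attracts T cells through CXCR3, passed on both of its probe sets. On the brighter, 1418652_at, WT skin had 11.20, 9.58 and 9.66 and D6-deficient skin 11.57, 12.69 and 12.19. On the dimmer, 1456907_at, the levels were 7.56, 5.87 and 5.87 against 8.43, 9.56 and 9.33. WT replicate 1 was the highest WT array and D6-deficient replicate 1 the lowest D6-deficient array on both, and the groups still did not overlap. The differences were 2.01 (SE 0.40, limma adjusted p = 0.0176) and 2.67 (SE 0.32, limma adjusted p = 5.7e-05). The first no longer passed without D6-deficient replicate 2 (1.74, adjusted p = 0.111), WT replicate 2 (1.73, adjusted p = 0.136) or WT replicate 3 (1.77, adjusted p = 0.0906), and the second passed without any single array. Ubd, a ubiquitin-like protein known to be induced by interferon gamma and TNF, was at 8.34, 7.12 and 7.62 in WT skin and at 9.58, 10.13 and 9.91 in D6-deficient skin. It differed by 2.18 (SE 0.26, limma adjusted p = 5.35e-05), again with no overlap. Cxcl9 and Ubd were the genes among the higher calls that also differed over the other days, by 0.66 and 1.10 on the Cxcl9 probe sets and by 0.72 for Ubd, at limma adjusted p of 0.0157, 0.00147 and 0.00139. The day 4 difference exceeded that of the other days for Ubd and for 1456907_at (by 1.47 and 2.01, limma adjusted p = 0.0423 and 0.0223) but not for 1418652_at (0.91, limma adjusted p = 0.574).

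Ptgs2, the inducible cyclooxygenase that makes prostaglandins, gave 6.55, 6.48 and 6.88 in WT skin against 8.72, 9.71 and 8.28 in D6-deficient skin. Each D6-deficient array was more than 1 unit above every WT array, and the difference was 2.26 (SE 0.35, limma adjusted p = 0.00129). Its other and brighter probe set, 1417262_at, was higher by 1.72 and did not pass (limma adjusted p = 0.119). Prok2, a secreted ligand made by myeloid cells, ran at 6.26, 5.23 and 6.65 in WT skin and 9.88, 7.75 and 7.22 in D6-deficient skin. D6-deficient replicate 1 was the highest by over 2 units, and in Il17a it was the highest too, by less. It is also the array with the highest 3' to 5' ratio, and whether that ratio has a part in the level was not tested. The difference of 2.24 (SE 0.48, limma adjusted p = 0.0289) no longer passed without D6-deficient replicate 1 (1.44, adjusted p = 0.16), WT replicate 1 (2.34, adjusted p = 0.0636) or WT replicate 2 (1.83, adjusted p = 0.201), and the other Prok2 probe set was 0.71 higher without passing (limma adjusted p = 0.122).

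Cited1, a transcriptional co-regulator, had 6.09, 5.39 and 5.76 in WT skin and 6.90, 7.96 and 7.69 in D6-deficient skin. The groups lay apart by less than 1 unit, and the difference was 1.77 (SE 0.21, limma adjusted p = 4.51e-05). Over the other days it averaged 0.02, and the excess on day 4 passed (1.75, limma adjusted p = 0.0011). Slc26a4, the anion exchanger pendrin, was at 6.71, 6.60 and 8.60 in WT skin and at 9.43, 10.05 and 10.22 in D6-deficient skin. WT replicate 3 stood apart from its group but below all D6-deficient arrays, and the difference was 2.60 (SE 0.52, limma adjusted p = 0.017). It did not pass without D6-deficient replicates 2 (2.52, adjusted p = 0.0701) or 3 (2.44, adjusted p = 0.0597) or WT replicates 1 (2.30, adjusted p = 0.0893) or 2 (2.25, adjusted p = 0.128). U90926 was higher by 2.15 (SE 0.36, limma adjusted p = 0.00315), at 5.59 to 7.07 in WT and 8.30 to 9.05 in D6-deficient skin.

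Ces1d, a carboxylesterase that hydrolyses lipids, moved in another way from the rest. Its levels on day 4 were 5.08, 4.26 and 3.34 in WT skin and 6.04, 6.85 and 6.18 in D6-deficient skin, against day 0 means of 7.49 and 7.38. WT skin had thus fallen by 3.27 from day 0, while the change of -1.02 in D6-deficient skin did not pass (limma adjusted p = 0.057). The difference on day 4 was 2.13 (SE 0.43, limma adjusted p = 0.0167), and no longer passed without D6-deficient replicate 2 (1.89, adjusted p = 0.0972), WT replicate 2 (2.15, adjusted p = 0.068) or WT replicate 3 (1.69, adjusted p = 0.0992). The other 2 Ces1d probe sets, both brighter, differed by 2.02 and 1.99 without passing (limma adjusted p = 0.0528 and 0.0678). Its sequence is close to that of other Ces1 genes, which the probe set of the call may share.

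**Figure D2:**
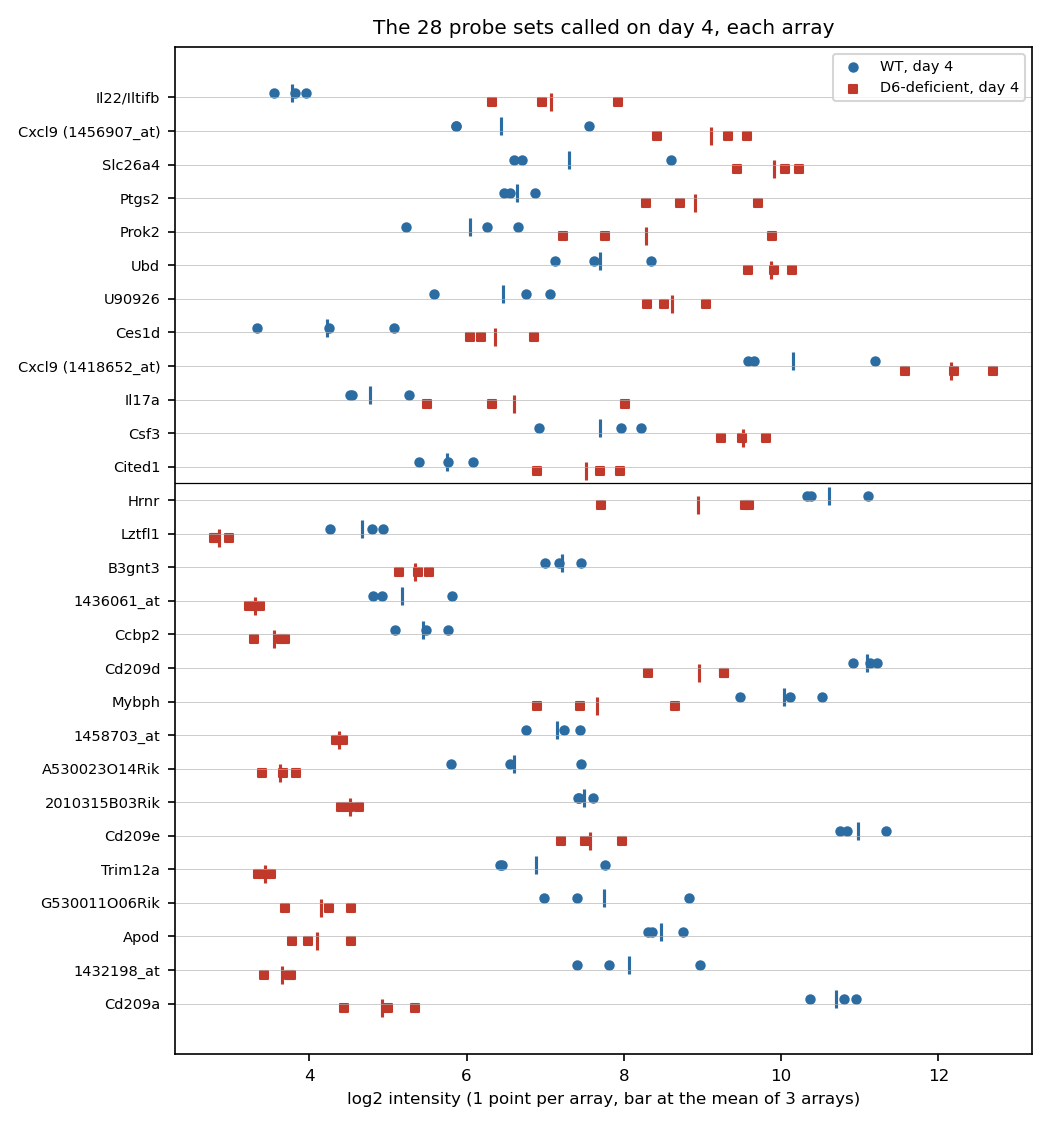
The log2 intensity of each called probe set is shown on the 3 WT and 3 D6-deficient day 4 arrays, 1 row for a probe set and 1 point for an array, with the higher and the lower ones grouped. No row has overlapping genotypes, Cd209a and Apod have the widest gaps, and Il17a and the 1418652_at probe set of Cxcl9 the narrowest.

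The 250 bases before the start site were taken for the called genes from RefSeq (GRCm38.p6), where 9 of the 11 higher genes and 13 of the 16 lower probe sets had one. They were searched on both strands for TGANTCA (AP-1, the transcription factor that TPA is best known to activate), GGGNNNNNCC (kappaB, the site of NF-kappaB) and TTCNNNGAA (GAS, the interferon gamma activated site), which may overlap one another. AP-1 was found in 2 of the 9 and none of the 13, kappaB in 6 and 8, and GAS in none of either. Of all 27025 promoters of this length 6.87% held the first, 45.4% the second and 7.18% the third. Shown are the 2 with an AP-1 match and Cxcl9, the chemokine that passed on both probe sets, with every match in capitals, for Prok2 at chr6:99726393-99726642 (minus strand), Il17a at chr1:20730655-20730904 (plus strand) and Cxcl9 at chr5:92328080-92328329 (minus strand).
Prok2: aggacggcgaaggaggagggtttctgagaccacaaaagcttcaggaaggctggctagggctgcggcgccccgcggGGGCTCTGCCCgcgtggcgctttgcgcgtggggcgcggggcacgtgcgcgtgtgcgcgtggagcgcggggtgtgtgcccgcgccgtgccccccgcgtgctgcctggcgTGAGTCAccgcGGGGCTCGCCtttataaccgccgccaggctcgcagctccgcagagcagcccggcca
Il17a: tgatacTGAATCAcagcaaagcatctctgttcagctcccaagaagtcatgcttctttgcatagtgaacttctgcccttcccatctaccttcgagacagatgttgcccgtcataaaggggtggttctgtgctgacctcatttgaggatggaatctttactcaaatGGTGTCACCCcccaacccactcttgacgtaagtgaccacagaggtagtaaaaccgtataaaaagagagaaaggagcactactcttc
Cxcl9: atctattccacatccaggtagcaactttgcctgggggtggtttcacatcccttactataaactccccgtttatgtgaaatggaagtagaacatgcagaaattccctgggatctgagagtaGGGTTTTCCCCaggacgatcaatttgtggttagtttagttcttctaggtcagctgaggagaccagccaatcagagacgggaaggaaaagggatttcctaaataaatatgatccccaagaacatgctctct
In Prok2 the match TGAGTCA lies near the start site and the capitals before and after it are kappaB matches, in Il17a TGAATCA lies at the far end, and in Cxcl9 the capitals are 2 overlapping kappaB matches. A match is a string of letters and does not show that a factor was bound.

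Of the 16 lower probe sets, those of Hrnr and A530023O14Rik did not pass over the other days. Hrnr encodes hornerin, a protein of the cornified envelope. Its levels were 10.33, 11.11 and 10.38 in WT skin and 7.70, 9.54 and 9.59 in D6-deficient skin. D6-deficient replicate 1 was the lowest, and the groups lay apart by less than 1 unit, with a difference of -1.66 (SE 0.37, 3.17-fold, limma adjusted p = 0.0313). Against day 0, WT skin was unchanged within error (0.06, limma adjusted p = 0.918) and D6-deficient skin had fallen by 2.42. It did not pass without D6-deficient replicate 1 (-1.04, adjusted p = 0.172), WT replicate 1 (-1.80, adjusted p = 0.0547), WT replicate 2 (-1.41, adjusted p = 0.201) or WT replicate 3 (-1.77, adjusted p = 0.0622), and the excess over the other days did not pass either (-1.53, limma adjusted p = 0.152).

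A530023O14Rik, now Trim30b, belongs to a family of antiviral TRIM proteins. It read 6.55, 5.80 and 7.46 in WT skin and 3.66, 3.40 and 3.83 in D6-deficient skin. The D6-deficient arrays were as dim as day 0 skin of either genotype (means 3.78 and 3.72), while WT skin had risen by 2.82 from day 0. The difference on day 4 was -2.97 (SE 0.26, limma adjusted p = 4.02e-07, with D6-deficient skin at the dim end of the scale), and it fell below that of the other days by 2.85 (limma adjusted p = 1.01e-05). The probe set 1458703_at, to which no gene is assigned, did the same: 7.44, 6.76 and 7.24 in WT skin, 4.34, 4.36 and 4.42 in D6-deficient skin. It differed by -2.77 (SE 0.21, limma adjusted p = 6.39e-08), after a rise of 2.55 from day 0 in WT skin and a change of -0.06 in D6-deficient skin. Over the other days it was lower too, by 0.43 (limma adjusted p = 0.0156).

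Of the 28 called probe sets 17 differed in the same direction over the 24 arrays of the other days, against 4.67% of all probe sets tested that differed there in either direction. These were 14 of the 16 lower and 3 of the 12 higher ones, and none of the 28 passed in the opposite direction. The tests of day 4 and of the other days share 1 estimate of spread, so they are not independent. The 3 called on each of the 5 days were Apod, 2010315B03Rik and Lztfl1. In numbers of calls, day 4 with 28 stood between day 2 with 206 (0.572%), day 0 with 44 (0.122%), day 1 with 5 (0.0139%) and day 6 with 6 (0.0167%).

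**Figure D3:**
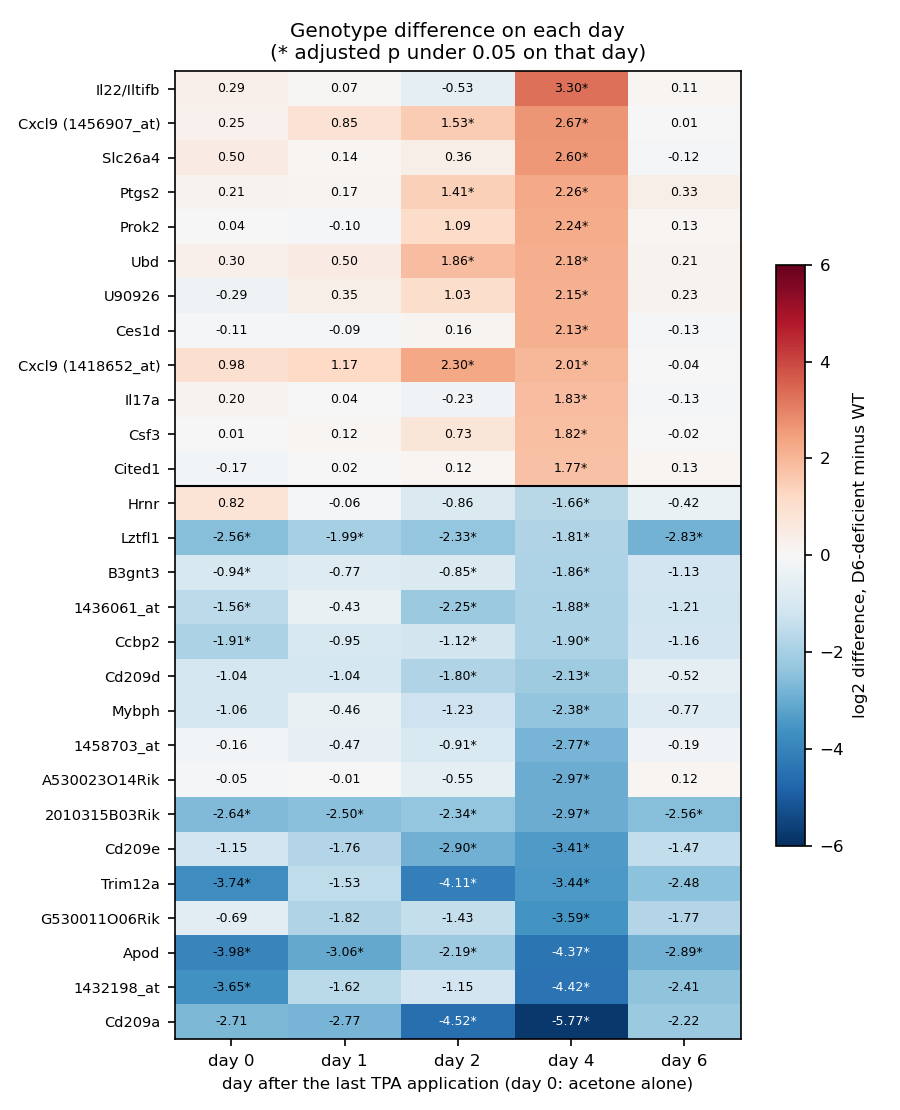
Genotype differences (log2, D6-deficient minus WT) of the called probe sets on each of the 5 days are shown by colour, with the day 4 calls as rows and the days as columns. The higher genes, such as Il22 and Csf3, have colour mainly on day 4 or on days 2 and 4, whereas most lower ones, such as Apod and Lztfl1, have it on every day.

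The largest difference of the comparison was that of Cd209a. The Cd209 genes are the mouse relatives of the pathogen-binding lectin DC-SIGN of dendritic cells and macrophages, which lie side by side on chromosome 8. Cd209a was at 10.79, 10.36 and 10.95 in WT skin and between 4.44 and 5.34 in D6-deficient skin. Its difference of -5.77 (SE 0.85, 54.7-fold, limma adjusted p = 0.000838) went with differences of -4.52 to -2.22 on the other days. Of these that of day 2 passed (limma adjusted p = 0.00157), and those of days 0, 1 and 6 did not (limma adjusted p = 0.108, 0.34 and 0.437). Cd209e read 10.84, 10.75 and 11.33 against 7.20, 7.51 and 7.98 (-3.41, SE 0.54, limma adjusted p = 0.00191). Cd209d read 10.92, 11.13 and 11.21 against 8.31, 9.28 and 9.27 (-2.13, SE 0.39, limma adjusted p = 0.00769; without D6-deficient replicate 1 -1.81, adjusted p = 0.0556). The family did not move as 1: both Cd209b probe sets were lower by less than 3-fold (-1.42 and -1.31, limma adjusted p = 0.0284 and 0.0434), Cd209g was higher (1.45, limma adjusted p = 0.031), and Cd209c and Cd209f did not pass (-0.77 and -0.16). Of the 11 Langerhans and dendritic cell markers tested, Cd209a among them, 7 lay below 0 and 4 above it, by up to 0.61. For 2 of the 11 every D6-deficient array was above every WT array. Besides Cd209a none passed, with H2-Ab1 at 0.00, Cd74 at -0.04 and Itgax at -0.21. In whole skin, fewer cells of a type and less RNA per cell cannot be told apart, here and in every result of this comparison.

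Apod, a lipocalin that carries small lipids, had 8.36, 8.30 and 8.75 in WT skin and 4.53, 3.99 and 3.78 in D6-deficient skin on 1444564_at. The groups were nearly 4 units apart and the difference was -4.37 (SE 0.50, limma adjusted p = 4.02e-05). Its much brighter probe set, 1416371_at, showed a smaller difference of -0.95 on day 4 (limma adjusted p = 0.00601) and -0.04 over the other days (limma adjusted p = 0.86). Mybph, a myosin-binding protein of skeletal muscle, ran at 10.11, 9.47 and 10.52 in WT and 8.65, 7.44 and 6.89 in D6-deficient skin (-2.38, SE 0.48, limma adjusted p = 0.0174). Skeletal muscle markers gave a mean level of 12.43, 12.43 and 12.14 on the WT arrays and 12.37, 11.70 and 11.78 on the D6-deficient ones, 10 of 12 lay below 0 and none of the 12 passed; their part in the Mybph result was not tested. Mybph did not pass without D6-deficient replicates 2 (-2.27, adjusted p = 0.0774) or 3 (-1.99, adjusted p = 0.0843) or WT replicates 1 (-2.34, adjusted p = 0.0608) or 3 (-2.13, adjusted p = 0.0842). B3gnt3, a glycosyltransferase, was lower on each D6-deficient array, with 7.45 and 7.18 in the upper WT arrays and at most 5.52 in D6-deficient skin (-1.86, SE 0.24, limma adjusted p = 0.00015). It had risen from day 0 in both genotypes, by 2.27 and 1.35. G530011O06Rik, on the X chromosome, was lower by 3.59 (SE 0.51, limma adjusted p = 0.0005) and had risen by 3.00 from day 0 in WT skin, against 0.11 in D6-deficient skin (limma adjusted p = 0.887). The probe sets without a gene 1432198_at and 1436061_at were lower by 4.42 and by 1.88 (limma adjusted p = 0.00487 and 0.0123), the second not without D6-deficient replicate 2 (-1.84, adjusted p = 0.0574) or WT replicate 3 (-1.56, adjusted p = 0.0821).

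Trim12a, a neighbour of Trim30b on chromosome 7, was at 6.42, 6.45 and 7.76 in WT skin and at 3.47, 3.35 and 3.51 in D6-deficient skin. Its difference of -3.44 (SE 0.71, limma adjusted p = 0.0207) went with differences of -3.74 on day 0, -1.53 on day 1, -4.11 on day 2 and -2.48 on day 6, of which those of days 1 and 6 did not pass (limma adjusted p = 0.599 and 0.182). It did not pass without D6-deficient replicates 1 (-3.45, adjusted p = 0.0592) or 2 (-3.39, adjusted p = 0.0744) or WT replicates 2 (-3.65, adjusted p = 0.0561) or 3 (-2.99, adjusted p = 0.0992), and its other probe set was at -0.01. Other genes of this cluster disagreed, Trim34 with itself: 1426093_at was higher by 1.09 (limma adjusted p = 0.0176) and 1424857_a_at was at -2.31 (limma adjusted p = 0.0528). Trim30d gave -1.72 and -1.94 and Trim30a -0.16 and 0.38, none of which passed. These genes are close copies of one another, and the split of signal between them is uncertain.

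Genes around the targeted locus were followed as a group. Within 5 Mb of Ccbp2 on chromosome 9 (GRCm38.p6), 152 probe sets of 84 genes were tested and 6 genes passed on 1 probe set each, 5 lower and 1 higher in D6-deficient skin, where 0.225% and 0.289% of all probe sets passed. Besides Ccbp2, the lower ones were 2010315B03Rik (-2.97, SE 0.30, limma adjusted p = 6.17e-06), Lztfl1, a ciliary transport protein (-1.81, SE 0.27, limma adjusted p = 0.00121), the amino acid transporter Slc6a20a (-1.28, limma adjusted p = 0.0221) and the mitochondrial leucyl-tRNA synthetase Lars2 (-1.17, limma adjusted p = 0.000203). Itga9, an integrin chain, was the higher one, at 6.97, 6.93 and 7.17 in WT and 8.35, 7.71 and 8.22 in D6-deficient skin (1.07, limma adjusted p = 0.00416). Other probe sets of these genes did not pass: the 4 of Lztfl1 lay between -0.46 and 0.29, the 2 of Lars2 at -0.63 and 0.22, and the 2 of Itga9 at 0.15 and 0.08. On its brightest probe set, 1417170_at, Lztfl1 was at 0.29 on day 4 and passed as higher over the other days (0.25, limma adjusted p = 0.00597). On the probe sets that passed on day 4, all 6 genes differed in the same direction over the other days. Sequence that travels with the targeted locus and the loss of D6 itself cannot be told apart for these genes, since every D6-deficient mouse would carry both.

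Chromosome 8 was singled out after its values were seen. It held 38 of the 175 probe sets with an adjusted p under 0.05 and a position (21.7%), against 5.12% of the probe sets tested, and 2.44% of its own probe sets passed. They stood for 29 genes, 14 probe sets higher and 24 lower, and 23 of the 38 differed in the same direction over the other days. Beyond Cd209 and Ces1d, they included the glutathione reductase Gsr, lower on both probe sets (-1.07 and -1.01, limma adjusted p = 0.000952 and 0.00452), Pomk, listed as 4930444A02Rik (-1.55 and -1.47, limma adjusted p = 4.03e-06 and 1.14e-05), and the scavenger receptor Msr1, which was higher (1.32, limma adjusted p = 0.00653).

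A total of 92 probe sets were higher and 65 lower with a difference under 3-fold, and the genes named in this paragraph were chosen after their values were seen. Ch25h, the cholesterol 25-hydroxylase induced in activated macrophages, had 6.78, 7.61 and 6.85 in WT skin and 8.15, 9.43 and 8.42 in D6-deficient skin, a difference of 1.58 (limma adjusted p = 0.0019). Angpt2, a ligand of TIE2 on endothelium, was at 8.17 to 8.47 in WT and 8.96 to 9.22 in D6-deficient skin (0.78, limma adjusted p = 0.017). Also higher were Cd93 (0.80), Notch4 (0.86), Egfl7 (0.64), Gpr182 (1.03) and Pdgfb (0.65), the NF-kappaB inhibitors Nfkbia (0.57) and Tnip1 (0.65), the TNF family ligand Tnfsf11 (0.88), and Lats1, a kinase of the Hippo pathway (1.58, and 0.90 over the other days). Among the lower ones were the heat shock protein Hspb1 at -0.80 and -0.75 on its 2 probe sets (12.23 to 12.49 in WT and 11.36 to 11.70 in D6-deficient skin on the first), Hspa1b (-0.78), Glo1 (-0.88), Cbr3 (-0.63) and Gstp1 (-0.35). Also lower were Acer1 (-1.29), Them5 (-1.45) and Serpinb5 (-0.73).

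Gene lists of skin inflammation were described by the number of members that passed in each direction and by the median of their differences. The CC chemokines, ligands of D6, had none of 13 genes that passed and a median of -0.18. Ccl4 was at 0.89 (limma adjusted p = 0.158) and Ccl3 at 1.00 (limma adjusted p = 0.428), while Ccl24 was at -1.11 (limma adjusted p = 0.364) and Ccl8, at 14.15 to 14.35 in WT and 13.85 to 14.10 in D6-deficient skin, was at -0.23. Of the other atypical receptors Ccrl1, Ccrl2, Cxcr7 and Darc none passed.

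Chemokines and receptor of neutrophil recruitment were higher in the median by 0.97 over 7 genes, 6 above 0. As higher, 0.289% of all probe sets passed, and of these 7 genes 1 did. This was Cxcr2, the receptor, at 9.44, 8.63 and 9.59 in WT skin and 10.20, 10.46 and 10.13 in D6-deficient skin (1.05, limma adjusted p = 0.00792). Its ligand Cxcl1 was at 0.97 on the brightest probe set (limma adjusted p = 0.124) and passed on another, 1441855_x_at (1.20, limma adjusted p = 0.00247). Cxcl2 ran at 7.65 to 9.30 in WT and 9.95 to 10.91 in D6-deficient skin, with no overlap, and missed the threshold (2.05, SE 0.66, limma adjusted p = 0.193). Of 14 neutrophil markers 1 passed, Cxcr2 again, which stands in both lists, against 0.289% of all probe sets that passed as higher. All 14 lay above 0 with a median of 0.30. Their mean level was 8.88 to 9.72 in WT and 9.56 to 10.16 in D6-deficient skin, overlapping ranges. Their part in the Csf3 and Cxcr2 results was not tested. Without D6-deficient replicate 1, 2 of the 14 lay below 0.

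The IL-17, IL-22 and IL-23 list had 14 genes, of which Il22 and Il17a passed (0.289% of all probe sets passed as higher), with a median of 0.04. None of the receptors and partners in the list passed: Il17ra was at 0.35, Il17rc at -0.43, Il23a at 0.08 and Il22ra1 at -0.18. T cell markers, a list of 19 of which none passed, had 13 above 0 and a median of 0.13. Without D6-deficient replicate 1, 15 of the 19 lay above 0 and the median was 0.30. Their mean levels were 6.76 to 6.93 in WT and 6.74 to 7.24 in D6-deficient skin, with Cd3e at 0.04, Cd3d at 0.13 and Cd4 at -0.20. Gzmb, a cytotoxic granule protease, was the marker with the smallest p (0.83, limma adjusted p = 0.307). In the type 2 list none of 14 passed, and the largest was Tslp, an epithelial cytokine, at 7.44, 8.36 and 8.54 in WT and 8.72, 9.87 and 9.42 in D6-deficient skin, which did not overlap (1.22, SE 0.30, limma adjusted p = 0.0684). The IL-6 family had 12 of 12 genes above 0 with a median of 0.31 and none passing, among them Il6 (0.99, limma adjusted p = 0.33), Osm (0.58) and Il11 (0.48). Without D6-deficient replicate 1, 2 of these 12 lay below 0. In the IL-1 family none of 16 passed, with Il1b at 0.20 (11.70 to 11.84 in WT, 11.79 to 12.26 in D6-deficient skin) and Il1a at 0.04, and in the IL-20 subfamily none of 5, with Il20 at 0.06. Tnf was at -0.16 and Il15 at -0.21, neither passing.

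Interferon lists divided Cxcl9 from its relatives. In the list around CXCR3 and interferon gamma 12 genes were tested, Cxcl9 alone passed (0.289% of all probe sets passed as higher), and the median was 0.15. Cxcl10, which signals through the same receptor, was at 7.11 to 7.54 in WT and 7.35 to 7.91 in D6-deficient skin, overlapping (0.35, limma adjusted p = 0.701). Cxcr3 was itself at -0.67 (limma adjusted p = 0.21). Of 32 genes of the type I interferon pathway, which the study had drawn in part from these arrays, 29 lay above 0, 15 had no overlap with D6-deficient skin higher (7.49% of all probe sets did), none passed, and the median was 0.37. Rsad2, an antiviral enzyme, had 8.78, 8.20 and 8.71 in WT and 10.18, 9.04 and 9.54 in D6-deficient skin (1.02, limma adjusted p = 0.109). Irf7 was at 0.48, Ifit2 at 0.49 and Isg15 at 0.73, and none of these passed.

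In the lists of epidermal genes Krt5, Hrnr and Dsg1a passed, all lower, as did 0.225% of all probe sets tested. All 12 basal keratinocyte genes had differences below 0, with a median of -0.50, and 1 passed. This was Krt5, a keratin of the basal layer, at 12.38, 12.57 and 12.24 in WT skin and 11.72, 11.60 and 11.89 in D6-deficient skin (-0.66, SE 0.14, limma adjusted p = 0.0222). Krt14, its partner, was at 13.76 to 13.87 against 12.98 to 13.63 without passing (-0.50, limma adjusted p = 0.181), and Dst, which anchors keratin filaments, was at -0.85 (limma adjusted p = 0.0524). Of 22 suprabasal and granular genes 18 lay below 0, the median was -0.88, and Hrnr and Dsg1a passed, both lower. Without D6-deficient replicate 1, the array of the highest 3' to 5' ratio, 16 of the 22 lay below 0 and the median was -0.41. Dsg1a, a desmosomal cadherin, had 9.37, 9.94 and 8.93 in WT skin and 7.71, 8.48 and 8.43 in D6-deficient skin (-1.21, SE 0.22, limma adjusted p = 0.00769). The mean level of the suprabasal list was 9.36 to 10.05 in WT and 8.11 to 9.27 in D6-deficient skin, D6-deficient replicate 1 being the lowest. Involucrin (Ivl) was at 9.68, 10.31 and 9.99 against 7.95, 8.50 and 9.35, which did not overlap (-1.39, limma adjusted p = 0.0684), whereas Flg overlapped, at 7.53, 9.02 and 6.04 against 4.62, 6.01 and 6.13 (-1.94, limma adjusted p = 0.0887). Lor was at -1.60 (limma adjusted p = 0.143) and Krt1 and Krt10 at -1.22 and -1.02, all with wide spread within the genotypes. Among 16 late cornified envelope genes none passed and the median was -0.31, with the Lce1 members below 0 and the 4 Lce3 members measured above it. Without D6-deficient replicate 1, 9 of these 16 lay below 0 in place of 11, and the median was -0.22. In the lists of stress keratins (20 genes), cell cycle (28) and matrix metalloproteinases (14) none passed, with medians of 0.04, -0.21 and 0.03, and none of 12 EGF receptor ligands and receptors did, with Ereg, a ligand, at -1.18 (limma adjusted p = 0.158).

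**Figure D4:**
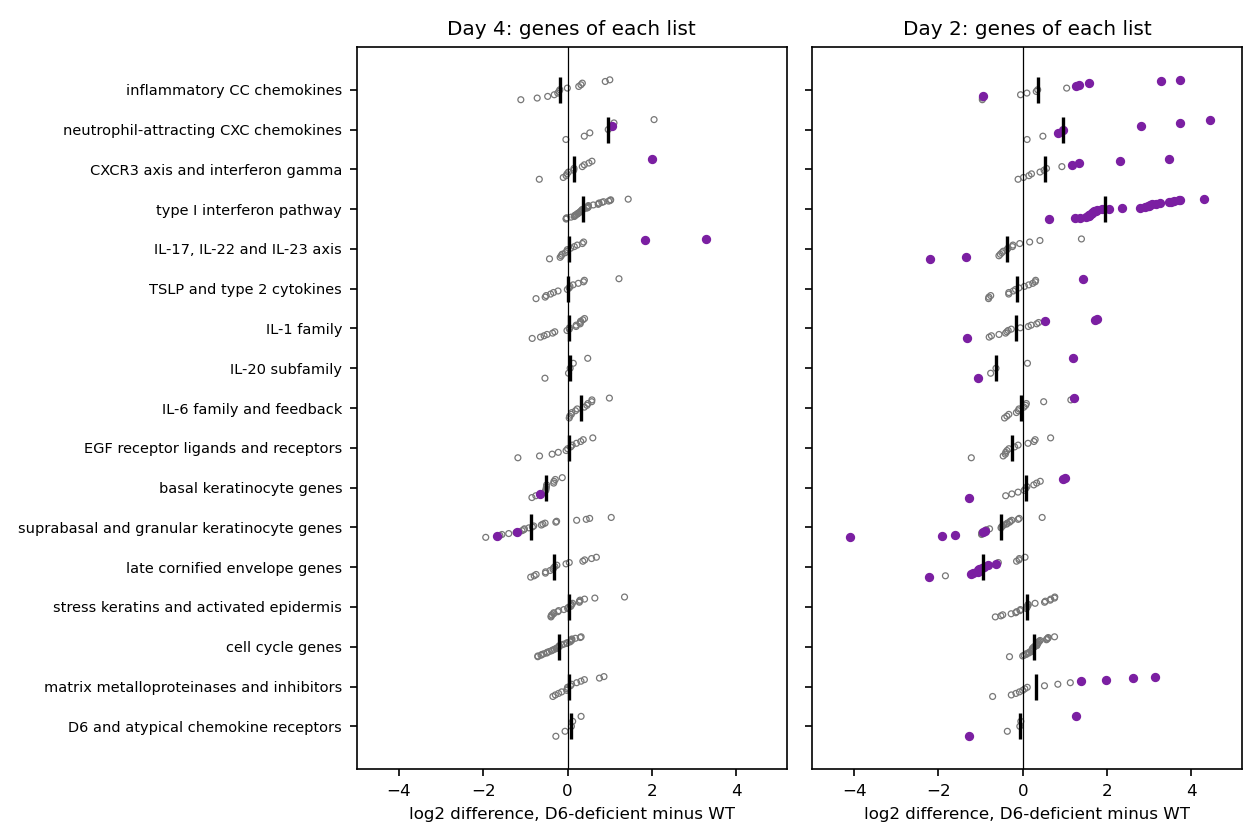
Genotype difference (log2, D6-deficient minus WT) of the genes in each list on day 4 and on day 2, 1 point for a gene and a bar at the median. Cell type marker lists are not shown. On day 4 the suprabasal list has the lowest median shown, -0.88, and the neutrophil-attracting list the highest, 0.97. Without D6-deficient replicate 1 these are -0.41 and 0.76, and the basal keratinocyte list is then the lowest shown at -0.48. The skeletal muscle markers, not shown, are then at -0.53. On day 2 the type I interferon list, which the study chose on that day, stands highest at 1.96.

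Markers of the cells in the skin were checked in the same way, and besides Cxcr2 and Cd209a none of them passed. Macrophage markers lay below 0 in 14 of 15 genes, and in 12 of 15 without D6-deficient replicate 1. Their mean levels were 10.79 to 11.01 in WT and 10.57 to 10.72 in D6-deficient skin, and Emr1, a surface protein of macrophages, was at -0.71 (limma adjusted p = 0.121). The Langerhans and dendritic list had 9.43 to 9.52 against 8.89 to 9.02 with Cd209a included, its other 10 genes lay between -0.46 and 0.61, and Cd207, the langerin of Langerhans cells, was at 0.61 (limma adjusted p = 0.67). Mast cell markers had at most 8.87 in WT and up to 9.30 in D6-deficient skin with no overlap of the means, with Kit at 0.57 (limma adjusted p = 0.106), and blood endothelial markers 8.57 to 8.84 against 8.80 to 9.38, with 9 of 10 above 0 and Kdr at 0.69 (limma adjusted p = 0.109). Lymphatic endothelial markers, of the cells in which D6 is known, had mean levels of 8.54 to 8.70 against 8.01 to 8.41. Of these 6 genes 3 lay below 0 and 3 above it, the latter by at most 0.21. Without D6-deficient replicate 1, 5 lay below and 1 above. Lyve1 was at 10.33 to 10.44 in WT and 9.20 to 9.63 in D6-deficient skin (-1.01, SE 0.60, limma adjusted p = 0.625). Among adipocyte markers 7 of 9 lay above 0, and Adipoq was at 0.87 (limma adjusted p = 0.0644). Hair follicle and melanocyte markers were dim throughout, at no more than 5.18 and 4.97. The part of these markers in the genes named above was not tested.

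**Figure D5:**
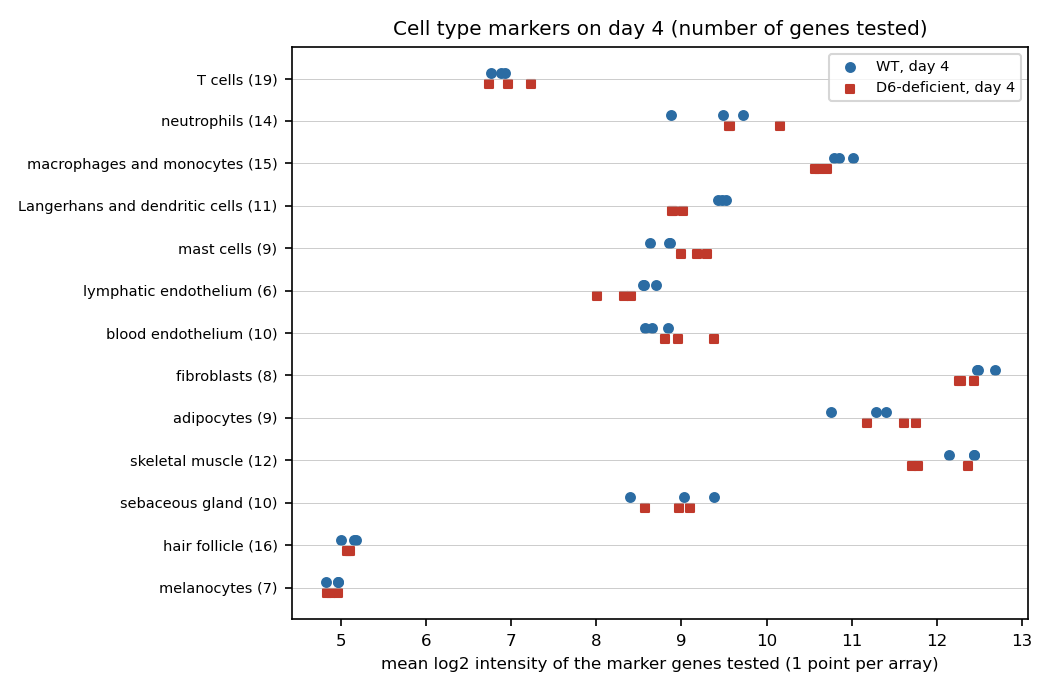
Mean log2 intensity of each cell type marker list on each day 4 array, WT and D6-deficient side by side, 1 point for an array. The neutrophil, T cell, adipocyte and sebaceous lists overlap between the genotypes, whereas the macrophage, lymphatic and fibroblast means lie lower and the mast cell mean higher in D6-deficient skin, and the dendritic mean is lower with Cd209a (-5.77) in a list whose median difference is -0.05. Of the 6 lymphatic genes 3 lay above 0 and 3 below.

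Day 2 was the nearest comparison of the same kind, made on arrays that day 4 did not use. Of the 28 day 4 calls 10 were also called on day 2, 35.7% of the day 4 calls, and 15 of the 206 day 2 calls passed on day 4 in the same direction, 7.28% of those. The difference of day 4 departed from that of day 2 for 303 probe sets (0.841%), 75 above and 228 below it (0.633%), and 204 of the 228 were higher in D6-deficient skin on day 2. The type I interferon list was chosen by the study on day 2 of these arrays, so that its counts there follow from the choice. All 32 genes passed as higher there, with a median of 1.96 (2.46% of all probe sets did). For 22 the decline of the difference to day 4 passed, a change that reuses the day 2 values of that choice. The difference of Cxcl10 went from 3.46 to 0.35 (limma adjusted p = 3.75e-05 for the change) and that of Irf7 from 3.24 to 0.48 (limma adjusted p = 0.000109). That of Cxcl9 on its brighter probe set was 2.30 and 2.01 on the 2 days, with no change that passed (limma adjusted p = 0.946). The difference of Il22 rose, from -0.53 to 3.30 (limma adjusted p = 0.0026), and so did that of Cited1, from 0.12 to 1.77 (limma adjusted p = 0.00413). Il17a rose from -0.23 to 1.83 in its difference without passing (limma adjusted p = 0.115). Neutrophil markers had a median of 1.84 on day 2 and 0.30 on day 4, and for 3 of the 14 the decline of the difference passed. The difference of Krt5 was 0.10 on day 2 and -0.66 on day 4, a change that did not pass (limma adjusted p = 0.0635), nor did that of Dsg1a (-0.95, limma adjusted p = 0.199). Against the mean of days 0, 1, 2 and 6 together, the difference of Krt5 fell by 0.90 (limma adjusted p = 0.0193) and that of Dsg1a by 1.23 (limma adjusted p = 0.0472).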

How the data were processed

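Whole back skin of 30 mice was hybridized to Affymetrix mouse genome arrays by the authors, 3 arrays for each genotype on days 0, 1, 2, 4 and 6. The authors background-corrected, quantile-normalized and summarized the probes by RMA, and the deposited values are linear intensities, of which log2 was taken here. No column was left unused. Of 45101 probe sets 64 controls were dropped, and 9008 dim ones, the 20% of the rest that averaged lowest across arrays, were left out as in the study's methods, so that 36029 were tested. RMA pulls arrays to 1 distribution, so a shift shared by all probe sets would not show.

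limma 3.58.1 (R 4.3.3) was fitted to all 30 arrays with 1 mean for each group of genotype and day, and the contrast was D6-deficient minus WT on day 4. The same fit gave the genotype difference over the other days and the contrasts between days, all adjusted by Benjamini-Hochberg over the probe sets tested. The fit was tested on simulated data. No 2 arrays were identical. The labels give no litters or batches, so p values measure the spread between arrays, which were taken to be separate animals.

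Named in the text are every called probe set, Ccbp2, the cytokine and epidermal genes the study discusses, up to 4 members of each list with the smallest p, and genes that passed within 5 Mb of Ccbp2. Genes outside this rule are said to have been chosen after their values were seen, apart from list members given to show a group. The genes, lists and comparisons were chosen with earlier results of these data known. Some genes that the rule took in are not reported here. A called gene is quoted by its called probe set, and a gene named for passing by the probe set that passed. Any other gene is quoted by its probe set with the highest mean unless another is named. Symbols are those of the file, 35729 probe sets being matched to RefSeq (GRCm38.p6), while 860 named several genes and 5634 none. Alternatives were no filter or another, median centring, the methods' t-test, other variance models, array weights, hybridization signal, the replicate number as a block, means per gene, a 2-fold threshold and each array left out. The array of the highest 3' to 5' ratio was left out of the list counts as an alternative chosen after seeing the data.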

Additional observations from a re-analysis of the deposited data

Results flagged for a closer look

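Several genotype differences of day 4 departed from those of other days by the test of that change in limma (adjusted p under 0.05 over all probe sets). Against the mean of days 0, 1, 2 and 6, the difference of day 4 was above by 3.31 for Il22, 2.01 for Cxcl9 (1456907_at), 1.47 for Ubd, 1.61 for Csf3 and 1.75 for Cited1, and changed by -2.85 for A530023O14Rik (Trim30b), -2.34 for 1458703_at, -0.896 for Krt5 and -1.23 for Dsg1a.

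Against day 2 alone, the difference was above by 3.83 for Il22, 1.65 for Cited1 and 2.99 for Cd207, which had been lower in D6-deficient skin on day 2 (-2.38). It changed by -2.42 for A530023O14Rik and -1.86 for 1458703_at. For interferon and chemokine genes that had been higher on day 2 the genotype difference changed, by -2.76 for Irf7, -2.57 for Ifit2, -2.97 for Isg15, -3.11 for Cxcl10, -2.49 for Rsad2, -2.35 for Ifit3, -2.39 for Ccl4, -2.72 for Ccl3, -3.34 for Cxcl3 and -1.3 for Il18bp. These are changes of the difference and not of the level in either genotype. The study chose its type I interferon genes on day 2, so for them the change reuses the values of that choice. The difference of the macrophage marker Cd68 changed by -1.39, from 0.82 on day 2 to -0.56 on day 4. Of the values named here, those for single probe sets with a second probe set in the same gene were not averaged.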

How the results depend on the processing

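The 28 called probe sets kept their direction under each alternative run. The main count of 28 (12 higher, 16 lower), the 185 with an adjusted p under 0.05 and the 17, 36 and 303 of the comparisons with other days moved by less than 1.5 times with no filter, the day 4 filter, median centring, the trend and robust variance model, and the hybridization signal. The last 2 settings lost Il17a (adjusted p = 0.0511 and 0.0516). With day 4 arrays only, 6 were called higher and 59 had an adjusted p under 0.05. The methods' t-test called 48 at its unadjusted threshold (21 higher and 27 lower, all 48 counted without adjustment), 25 of them among the 28, and 0 after Benjamini-Hochberg adjustment, with 0 higher and 0 lower and 2776 at an unadjusted p under 0.05. Array weights gave 50 called (23 higher, 27 lower), 537 with an adjusted p under 0.05, 30 that differed the same way over the other days, and 160 and 830 that departed from the other days and from day 2. With the mean per gene 10 were lower, 118 passed and 11 differed the same way, and Lztfl1 was lost (adjusted p = 0.0644). A 2-fold threshold called 74 (33 higher, 41 lower). The replicate numbers did not pair the arrays (correlations of same-numbered deviations -0.0631, 0.0349 and -0.112), and the replicate block gave 30 called and 21 that departed from the other days. The cause of these shifts was not tested, apart from the fewer arrays or looser thresholds that define them.

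Leaving out 1 array at a time gave 27 to 38 called, 9 to 16 higher, 16 to 25 lower (25 without D6-deficient replicate 3), 84 to 191 with an adjusted p under 0.05 (84 without WT replicate 2, 102 without D6-deficient replicate 2), 16 to 19 that differed the same way, 13 to 52 that departed from the other days (13, 14 and 22 without D6-deficient replicate 2, WT replicate 2 and WT replicate 3) and 182 to 289 from day 2 (182 without WT replicate 3). Of the 28, 18 passed without any single array. Of the 2174 values of the other 128 probe sets that the naming rule took in, 2114 kept direction and call, 24 lost the call, 29 gained it and 7 near 0 changed sign: Ccbp2 on 1437937_at (0.047 without WT replicate 1 and -0.16 without WT replicate 2), Il1a (-0.00061 without WT replicate 1 and 0.12 without WT replicate 3), Il20 (-0.043 and 0.16 without the same arrays), Il20ra (-0.073 without WT replicate 3 and 0.40 without WT replicate 2), Ccrl1 to 0.16 with the mean per gene, and Tyr to 0.020 with the hybridization signal and 0.010 with the mean per gene. Without D6-deficient replicate 1, 11 of the 14 genes of the IL-17 list lay above 0 in place of 7, and 4 of the 12 EGF receptor genes in place of 7.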
